A study of Drosophila melanogaster with 2 samples.

Results

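A strong chromatin immunoprecipitation (ChIP-seq) region was counted as found in 1 replicate only when the other replicate listed no summit, the base of highest signal, within 250 bp of its own. The regions were selected on their measured values. From each replicate's list the rows with the highest signal were taken, as many as the authors' optimal list holds, and a row was kept when no summit of the other replicate's whole list and no summit of the authors' optimal list lay within 250 bp. This left 63 strong regions in replicate 2 (1.59% of the strong rows taken) and 236 in replicate 3 (5.94%), together 299 of the 60000 rows of both lists. Signal, rank, summit distance and pooled signal therefore describe how the regions were chosen and carry no test. Gene annotation, chromosome arm and base sequence were not used in the choice. The rule did use summit positions, because a kept summit lay over 250 bp from those of the other replicate and the optimal list. The place of a summit beside a transcript start, and the bases around it, are therefore not free of the choice. As 1 library also stands behind each set, these features are given as shares with 95% Wilson intervals and also without a test. These intervals cover counting error over regions only.

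The 2 libraries came from whole Drosophila melanogaster embryos of 0 to 24 h, male and female pooled, of the strain Pum-MiMIC-GFP, in which an eGFP exon inside an intron of pum makes a Pum-eGFP fusion. Chromatin was sonicated to 200 to 800 bp and precipitated with an anti-GFP antibody. The libraries are biological replicates 2 and 3 of 1 group, so no conditions were compared, and every embryonic tissue and stage was mixed. Control libraries were not analysed here, and the files hold region lists rather than reads, so the sequencing depth is unknown.

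Pumilio (Pum) is an RNA-binding protein of the PUF family that recognises a short element in the 3' UTR of target mRNAs and represses their translation, with partners such as Nanos and Brat. It is best known in the embryo for repressing maternal hunchback mRNA, and it also acts in germline stem cells and neurons. ChIP-seq recovers DNA that was crosslinked, directly or through other molecules, to the tagged protein. Replicate libraries show which regions are found again.

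The strongest regions of each set are shown as the summit with 100 bases on either side, on the plus strand of dm6 (Release 6, RefSeq assembly), because the base content and short motifs of such windows are described for each set. Capitals mark every occurrence, on either strand, of the 16 motifs searched. Where the window overlapped an annotated UTR, 30 bases around the motif nearest to the summit are given instead. The 4 strongest regions of replicate 2 on the arms shown here were these, with the InR intron region of replicate 2 added after its values were seen because replicate 3 had its own strongest region in the same intron.
Replicate 2, intergenic near CR42530, chr2L:23332465-23332665: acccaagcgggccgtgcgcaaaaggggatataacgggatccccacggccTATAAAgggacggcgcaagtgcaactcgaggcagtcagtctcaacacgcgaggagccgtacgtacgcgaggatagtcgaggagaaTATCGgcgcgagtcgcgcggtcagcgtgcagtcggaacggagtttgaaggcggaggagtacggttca
Replicate 2, SF1 promoter, chr3R:17540017-17540217: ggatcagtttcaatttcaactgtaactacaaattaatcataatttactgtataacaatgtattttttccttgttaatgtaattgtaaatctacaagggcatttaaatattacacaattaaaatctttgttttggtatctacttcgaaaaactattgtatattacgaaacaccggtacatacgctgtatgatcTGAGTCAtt
Replicate 2, Rtnl1 intron, chr2L:5001025-5001225: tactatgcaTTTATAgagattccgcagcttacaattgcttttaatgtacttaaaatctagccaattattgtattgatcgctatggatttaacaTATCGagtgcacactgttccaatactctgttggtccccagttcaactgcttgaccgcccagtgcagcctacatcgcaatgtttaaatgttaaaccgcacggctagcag
Replicate 2, l(3)neo38 promoter, chr3R:11778993-11779022: ccgagtgtcgggCATATGacactggtccca
Replicate 2, InR intron, chr3R:21612911-21613111: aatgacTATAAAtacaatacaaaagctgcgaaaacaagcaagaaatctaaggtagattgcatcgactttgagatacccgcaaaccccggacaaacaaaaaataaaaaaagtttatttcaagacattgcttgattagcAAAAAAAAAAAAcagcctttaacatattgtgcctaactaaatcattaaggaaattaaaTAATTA

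The corresponding regions of replicate 3 follow. The eyg and kis regions were added after the motif counts were seen, as the strongest promoter regions of replicate 3, on the arms shown and free of UTR, with a GAGA repeat and with a CA repeat.
Replicate 3, InR intron, chr3R:21613425-21613625: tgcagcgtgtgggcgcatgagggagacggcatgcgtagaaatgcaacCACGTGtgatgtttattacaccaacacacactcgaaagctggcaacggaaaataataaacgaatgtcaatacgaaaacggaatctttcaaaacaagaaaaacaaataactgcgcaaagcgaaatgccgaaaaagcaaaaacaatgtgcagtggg
Replicate 3, Klc and CG10984 promoter, chr3L:12749586-12749615: agtcacttttTGTACATAatatctatgaac
Replicate 3, CG13917 intron, chr3L:1591773-1591973: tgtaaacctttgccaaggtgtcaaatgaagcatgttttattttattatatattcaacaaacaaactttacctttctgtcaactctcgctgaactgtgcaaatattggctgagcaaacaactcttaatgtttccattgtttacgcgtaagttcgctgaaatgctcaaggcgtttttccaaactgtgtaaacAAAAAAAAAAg
Replicate 3, Stat92E promoter, chr3R:20550764-20550793: acggctggctggTATCGgttagtttgtatt
Replicate 3, eyg promoter, chr3L:12468148-12468348: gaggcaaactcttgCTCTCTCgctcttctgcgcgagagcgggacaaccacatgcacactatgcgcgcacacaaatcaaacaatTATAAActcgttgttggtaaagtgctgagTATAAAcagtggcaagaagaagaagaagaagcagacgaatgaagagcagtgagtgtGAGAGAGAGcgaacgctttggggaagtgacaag
Replicate 3, lncRNA:CR44218 promoter inside kis, chr2L:249243-249443: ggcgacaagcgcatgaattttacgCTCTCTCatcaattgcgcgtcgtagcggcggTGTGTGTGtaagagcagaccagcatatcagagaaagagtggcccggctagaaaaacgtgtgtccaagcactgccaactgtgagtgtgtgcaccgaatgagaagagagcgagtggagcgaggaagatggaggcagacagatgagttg

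The base content of these windows varied widely. The region near CR42530 had a GC content of 60.7% and held the TATA box letters TATAAA and the core CGATA of the site of the insulator protein BEAF-32, while the SF1 promoter region had 27.4% and held only an AP-1 site (TGANTCA). In the InR intron the replicate 2 window had 29.4% GC and a run of adenines, and the replicate 3 window had 43.3% and an E-box (CACGTG). The stretch from the Klc promoter holds TGTACATA, a match to TGTANATA, the element that Pum binds in RNA. The eyg promoter region holds the GAGA repeat (GAGAGAG) on both strands and TATAAA in 2 places, and the region inside kis holds a GAGA repeat and a CA repeat (CACACACA), both on the minus strand.

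In neither set did the regions reach the top of their list. Replicate 2 listed 30000 rows with signals from 13.7 to 1547, in the authors' units, and replicate 3 listed 30000 from 11 to 943. The regions of the replicate 2 set had signals from 44.6 to 90.1 (median 50), and those of the replicate 3 set from 38.8 to 95.8 (median 44.1). Because the sets held few rows of the top ranks, they were set beside the shared strong regions from the same ranks. These are strong rows at or below the best rank of the set (1588 in replicate 2, 861 in replicate 3) with an other-replicate summit within 250 bp. There were 2311 of these in replicate 2 and 2841 in replicate 3. They were not matched rank by rank. Their median ranks were 2764 and 2349, against 3412 and 3289 for the sets, and their median signals were higher, at 59.3 and 54.2. Past rank 3000 lay 46 of the 63 regions of replicate 2 and 155 of the 236 of replicate 3, and the first 1000 ranks held 0 and 1. At the edges of the rule, the last strong row had a signal of 44.266 and the next 44.261 in replicate 2, and 38.832 and 38.827 in replicate 3. The nearest other-replicate summit of a kept region lay 255 bp away in both sets, and the farthest that counted as a match lay 247 bp away for replicate 2 and 248 bp for replicate 3.

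Most regions of the replicate 2 set had a replicate 3 summit within 1000 bp, and most of the replicate 3 set had no replicate 2 summit that close. The median distance to the nearest summit of the other library was 572 bp for the replicate 2 set and 1278 bp for the replicate 3 set. Within 1000 bp there was such a summit for 46 of 63 regions of replicate 2 (73%, 61 to 82.4%) and for 100 of 236 of replicate 3 (42.4%, 36.2 to 48.8%). Within 500 bp the counts were 25 (39.7%) and 42 (17.8%), and 6 and 28 regions had none within 5000 bp. The nearby summit was mostly outside the strong rows of its own list. It was among them for 9 of the 46 regions of replicate 2 (19.6%) and for 22 of the 100 of replicate 3 (22%). The share of strong rows in the whole lists was not set beside these shares. They therefore do not show that the nearby summits were weaker than other rows. A stronger row of the same library lay within 1000 bp of 11 regions of replicate 2 (17.5%) and 28 of replicate 3 (11.9%), against 11.9% and 10.2% of the shared regions from the same ranks. After summits within 250 bp of a stronger member were joined, 62 and 233 regions remained.

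**Figure D1:**
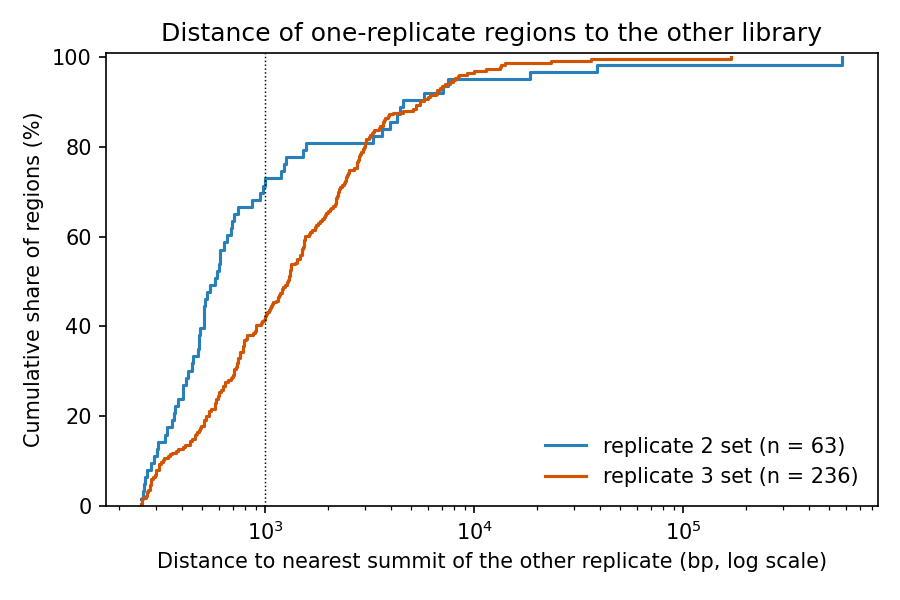
Cumulative share of regions (y axis, %) against the distance from the summit to the nearest summit of the other replicate (x axis, bp, log scale), with the replicate 2 set in blue, the replicate 3 set in orange and a dotted line at 1000 bp. At that line the curves stand at 73% and 42.4%, and both start above 250 bp because of the rule.

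Some regions nevertheless lay far from any summit of the other library. The farthest region of replicate 2 was at the start of MED21, a Mediator subunit gene, on 3L at 25116004. Its signal was 53.7 in replicate 2 and the nearest replicate 3 summit was 578471 bp away, with 9 rows of replicate 2 and 0 of replicate 3 within 100000 bp of it. The strongest region of the replicate 2 set, near CR42530 on 2L, had the nearest replicate 3 summit at 38694 bp and a pooled signal of 41.4 against its own 90.1. The central 50 bases of that window occurred 2 times on the 6 arms, the only sequence searched. Those of no other region of either set occurred more than once there. In replicate 3 both of the farthest regions were on chromosome 4. That at CG31999 had a signal of 39.3 and no replicate 2 summit within 170110 bp, and that at Hcf, the gene of host cell factor, had 49.9 and none within 36133 bp. Chromosome 4 held 0.14% of all rows of replicate 2 and 0.67% of those of replicate 3.

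The pooled list, made from both alignments together, also held most of these regions. A pooled summit lay within 250 bp of 60 of 63 regions of replicate 2 (95.2%) and of 218 of 236 of replicate 3 (92.4%). Their median pooled ranks were 6243 and 6747, and the best were 3990 and 3979, just outside the optimal list, as the rule requires. The pooled signal divided by the region's own signal had a median of 1.1 (range 0.459 to 1.52) in replicate 2 and 1.13 (0.548 to 1.89) in replicate 3. For the shared regions from the same ranks it was 1.72 and 2.14. The pooled signal was under the region's own in 15 of 60 regions (25%) and 68 of 218 (31.2%), against 1.26% and 1.48% of shared regions. The deposited −log10 q-value took the highest value of its list in 11.1% of the replicate 2 set and 87.7% of the replicate 3 set, against 39.7% and 96.2% of shared regions from the same ranks. These shared regions had higher median signals (59.3 and 54.2, against 50 and 44.1), and the part of signal in this was not tested.

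**Figure D2:**
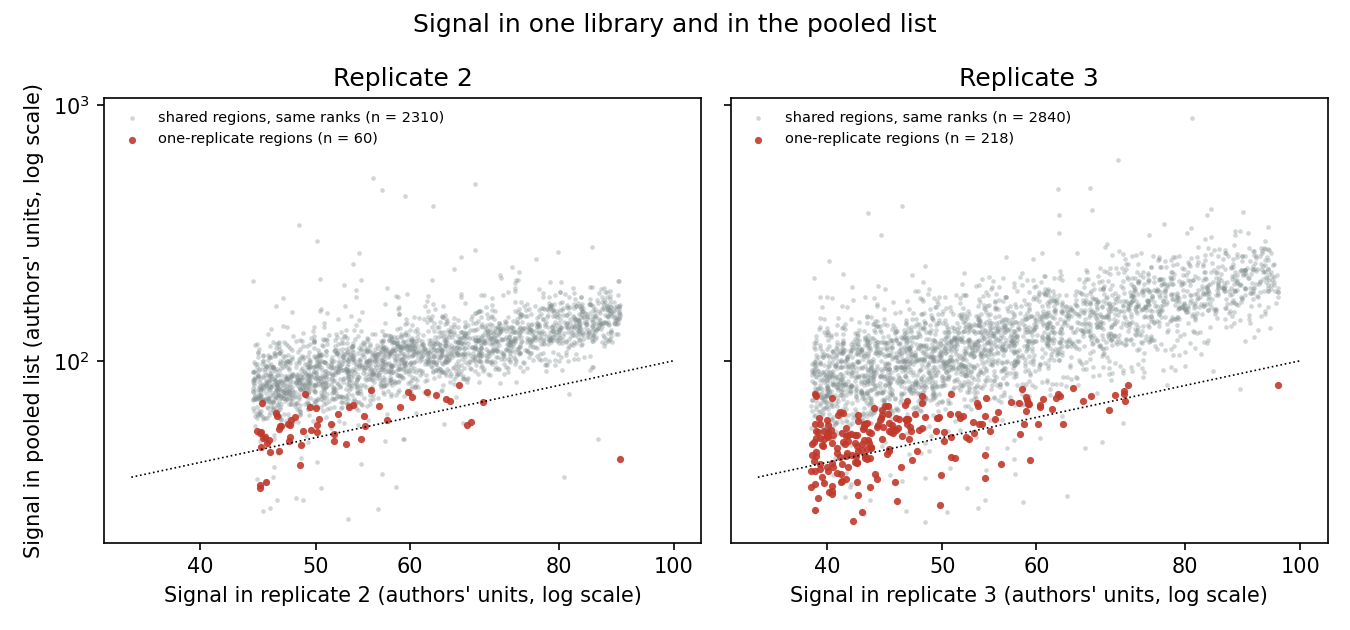
Signal in the pooled list (y axis) against signal in the replicate (x axis), both in the authors' units on log scales, for replicate 2 (left) and replicate 3 (right). Red points are the 60 and 218 one-replicate regions with a pooled summit within 250 bp, grey points the shared regions from the same ranks, and the dotted line marks equal values; the red points lie along that line, with median ratios of 1.1 and 1.13, below most of the grey points.

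Signals of the replicates are set side by side for single loci, but the lists are not on 1 scale. Over the autosomal strong regions of replicate 2 that were shared, its signal divided by that of replicate 3 had a median of 1.47. The rule also favours a low value in the other list.

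Among these loci, the insulin receptor gene InR held a strong region of each library in 1 intron, at different places. Replicate 2 had a summit at 21613011 on 3R with a signal of 63.1 (rank 2571), and replicate 3 had one 514 bp away at 21613525 with 95.8 (rank 861), the strongest of its set. The nearest replicate 2 summit to the latter had 34.4, at 299 bp. The pooled list held both places, with signals of 73.2 and 80.1. They lay 2729 bp and 2215 bp from the nearest transcript start, that of lncRNA:CR44034 (FBgn0264826, 21615020 to 21615740). The sets came within 1000 bp of each other at 1 further place, on 3L, where summits at 20242134 and 20241628 had signals of 49.5 and 42.

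The other strong regions of replicate 2 fell into near misses and isolated summits. Near misses were at the promoter shared by SF1, a splicing factor gene, and FBgn0010926, with 69.1 in replicate 2, 29.1 in replicate 3 at 294 bp and 68.9 in the pooled list. At l(3)neo38 (FBgn0265276) replicate 2 had 67 and replicate 3 had 73.6, with summits 428 bp apart, so both libraries had a strong region there. In an intron of Rtnl1, which encodes a reticulon of the endoplasmic reticulum, the values were 67.6 and 41.1 at 369 bp. At mtgo (FBgn0259735) they were 64.9 and 15.2 at 525 bp. Isolated summits were those near lncRNA:CR45115 on 3L, with 66 in replicate 2 against 11.8 in replicate 3 at 3951 bp, and at Nsun2, which encodes an RNA methyltransferase, and dgt4 on X, with 64.4 against 34 at 3269 bp. The region in the 3' UTR of pros, a homeodomain factor of neural precursors, had 64, and the nearest replicate 3 summit (17) and pooled summit (27.5) lay 3608 bp and 3660 bp away.

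The remaining strong regions of replicate 2 were nearest to lncRNA:CR45539 on X (62, with a replicate 3 summit of 32.2 at 604 bp), CG5214 on 3R (61.4, with 39.8 at 994 bp) and CG12483 on 3L (60.3, with 18.6 at 686 bp). The last lay inside an annotated transposable element, the only region of either set to do so.

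In replicate 3 the second strongest region was at the promoter shared by Klc, the kinesin light chain gene (FBgn0010235), and CG10984 on 3L. Its summit at 12749686 had 79.1, the nearest replicate 2 summit (20.9) was 2855 bp away, and no pooled summit lay within 2928 bp. The intron region of CG13917 had 71.6 against 22.8 at 1779 bp, with 80.3 in the pooled list. At Stat92E, which encodes the transcription factor of the JAK/STAT pathway (FBgn0016917), the summit at 20550776 had 71.2, and a replicate 2 summit 641 bp away had 69.8. At tou, a chromatin protein gene on 2R, the region had 67.9 and lay 381 bp from a replicate 2 summit of 199 (284 in the pooled list). Other regions of the set with signals of 64.4 or more were in an intron of CG6191 and CG45088 (71.1) and of CG5346 (71.1), near asRNA:CR45136 (69.9), Hacd1 (69), tRNA:Arg-CCT-1-2 (66.7), CG31729 (65.7) and CG16762 (64.4). For these 7 the nearest replicate 2 summit had a signal of 14 to 21.6.

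Promoters were the largest class of both sets at the depth of the rule, although in replicate 2 the promoter share became 22.6% when the 8000 strongest rows were taken and 0% (1 region) with the 2000 strongest. Promoters were defined as the 500 bp before and after a transcript start, and held 34 of 63 regions of replicate 2 (54%, 41.8 to 65.7%) and 108 of 236 of replicate 3 (45.8%, 39.5 to 52.1%), against 47.9% and 52.3% of the shared regions from the same ranks and 13.6% of the bases of the 6 arms. Introns held 15 regions (23.8%) and 93 (39.4%), against 35.3% and 33.1% of shared regions. Intergenic sequence held 10 (15.9%) and 20 (8.47%), against 14.7% and 13%. Exons outside promoters held few regions. In replicate 2 these were the 3' UTRs of pros and Peritrophin-A and the coding sequence of Osi14 and PNUTS. In replicate 3 they were the 3' UTRs of CG1888, Bre1, tio, aqz and of CG13739 and CG13954 together, the coding sequence of eIF1, 6 summits in the 5' UTRs of lbk, DCP2, CAP, bun and spen, and exons of lncRNA:CR44218, lncRNA:CR45345 and lncRNA:CR43126. The 5' UTR share of the replicate 3 set was 2.54% (1.17 to 5.43%), against 0.352% of shared regions, and the 3' UTR shares were 3.17% and 2.12%, against 0.692% and 0.563%. In replicate 2, promoters held 29 of the 46 regions with a replicate 3 summit within 1000 bp (63%, 48.6 to 75.5%). Of the 17 without, they held 5 (29.4%, 13.3 to 53.1%). The intervals overlap, which does not decide whether the shares differ, and the difference was not tested. In replicate 3 the corresponding shares were 46% and 45.6%.

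By chromosome arm, the replicate 3 set held few regions on X. There were 14 of 236 (5.93%, 3.57 to 9.71%), against 18.8% of the shared regions of the same ranks and 17.6% of the bases. The replicate 2 set held 12 of 63 (19%, 11.2 to 30.4%), against 20.9%. Of all strong rows, X held 20.6% in replicate 2 and 17.7% in replicate 3, while of the whole lists it held 15.9% and 16.8%. Over the shared strong regions of replicate 3, its signal divided by that of replicate 2 had a median of 0.792 on X and 0.854 on the autosomes; the part of this in the X share of the one-replicate regions was not tested. The 14 X regions included a pair inside CHES-1-like and a pair inside NFAT, both transcription factor genes, and 1 each at or in prage, Pde9, Rhp, CG12081, CanA-14F, lncRNA:CR45668, mir-4962, sesB, mew and mthl1. On 2R lay 64 regions of replicate 3 (27.1%, 21.8 to 33.1%) and 9 of replicate 2 (14.3%), against 18.7% and 18.3% of shared regions. Chromosome 4 held 3 regions of replicate 3, at CG31999, at Hcf and in the zinc-finger homeodomain gene zfh2, and 0 of replicate 2. Arms 2L, 3L and 3R held 13, 13 and 16 regions of replicate 2 and 45, 55 and 55 of replicate 3.

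**Figure D3:**
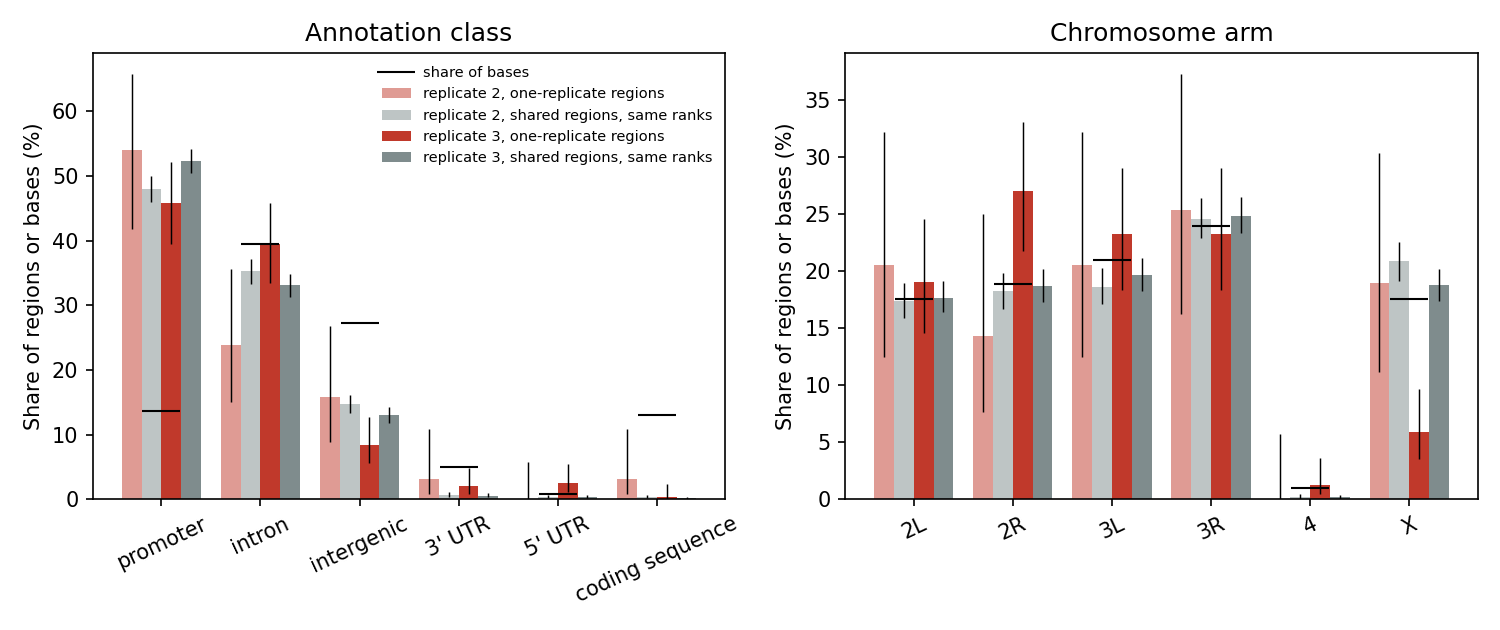
Share of regions (y axis, %) by annotation class, other exons left out (left), and by chromosome arm (right). Pale and dark red bars are the one-replicate regions of replicates 2 and 3, pale and dark grey bars the shared regions from the same ranks, lines the 95% Wilson intervals and short horizontal strokes the share of bases; the dark red bar on X, at 5.93%, stands below the others there.

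At promoters, the summits of the replicate 3 set lay on both sides of the transcript start, whereas the other summits lay mostly upstream. In replicate 2, 28 of 34 promoter summits were upstream of the nearest start (82.4%, 66.5 to 91.7%; median position -69 bp), against 85% of shared regions from the same ranks (median -82 bp). In replicate 3 it was 55 of 108 (50.9%, 41.6 to 60.2%; median -7.5 bp), against 79.5% (77.4 to 81.5%; median -79 bp). The rule kept only summits over 250 bp from those of the other library, and its part in these positions was not tested. The first 100 bp downstream of the start held 33.3% of the promoter summits of the replicate 3 set, against 13% of those of shared regions, and 5.88% in the replicate 2 set, against 8.13%. Promoter regions with starts of 2 or more genes within 500 bp made up 55.9% of the replicate 2 set (19 of 34) and 32.4% of the replicate 3 set (35 of 108), against 45% and 42.3% of all shared promoter regions.

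**Figure D4:**
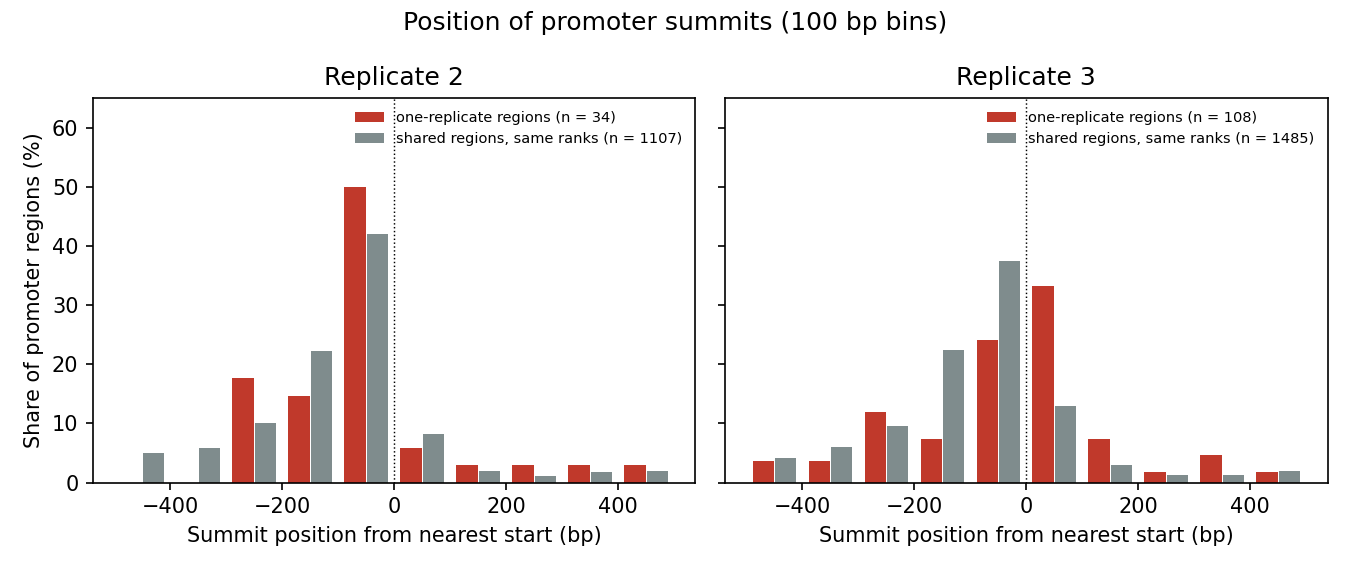
Share of promoter regions (y axis, %) by position of the summit from the nearest transcript start (x axis, 100 bp bins, negative upstream, dotted line at the start), for the one-replicate regions (red) and the shared regions from the same ranks (grey). In replicate 3 the highest red bar, 33.3%, is the bin just downstream of the start, while the highest grey bar lies just upstream.

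The replicate 3 set lacked the dip in GC content that shared regions had at their summits. In shared regions GC content fell at the summit to a mean of 36.7% in replicate 2 and 36% in replicate 3 over 51 bp, from 44% at 500 bp on the lower-coordinate side in both. The replicate 2 set had a shallower dip, with 39.7% at the summit and 44.3% at 500 bp on either side. In the replicate 3 set GC content was nearly level, with 40.5% at the summit and 40.8% and 41.3% at 500 bp on the lower- and higher-coordinate sides. As the rule kept only summits over 250 bp from those of the other library, its part in these profiles was not tested. Over the windows shown above the mean GC content was 39.2% in the replicate 2 set and 40.7% in the replicate 3 set, against 37% and 36.9%. In the replicate 3 set it was 42% at promoters and 39.6% elsewhere, against 37.8% and 36% of shared regions. Repeats were rare in both sets. More than 50% of the window was masked as repeat in 4 regions of replicate 2 (6.35%) and 3 of replicate 3 (1.27%), against 2.08% and 2.39%.

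**Figure D5:**
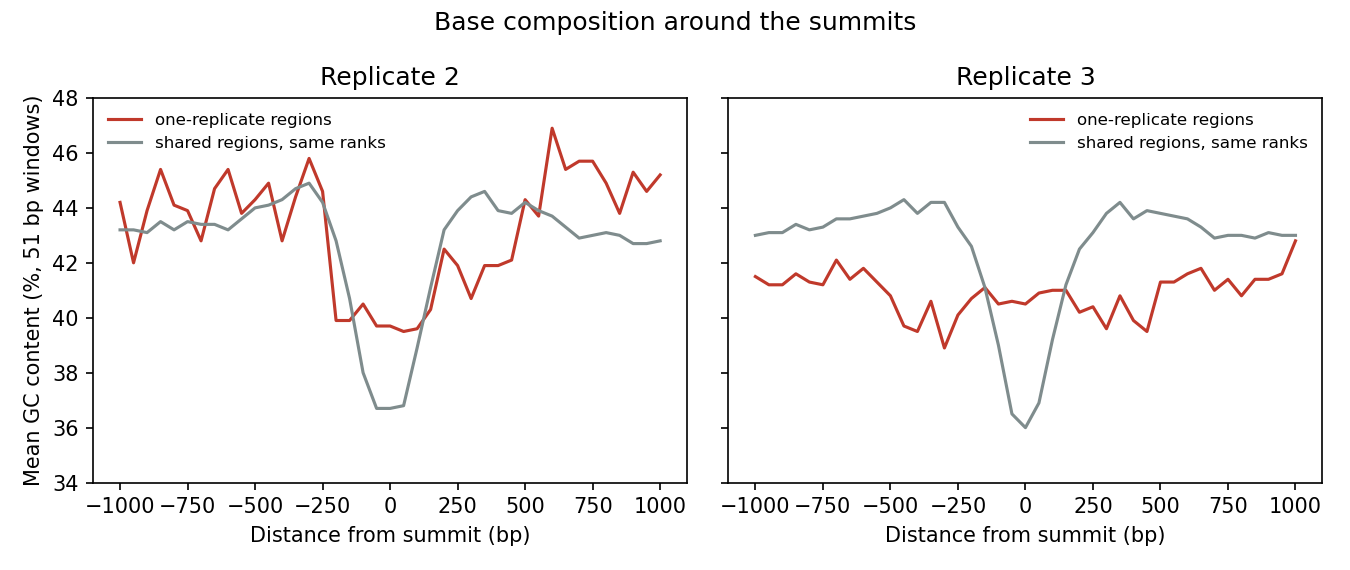
Mean GC content in 51 bp windows (y axis, %) against distance from the summit (x axis, bp, along the plus strand), for the one-replicate regions (red) and the shared regions from the same ranks (grey). The grey curves dip to 36.7% and 36% at the summit; the red curve of replicate 3 stays near 40.5% there, and the red curve of replicate 2, from 63 regions, dips to 39.7%.

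Of the 16 motifs, 4 are given first, chosen after the counts were seen. In the replicate 3 set the GAGA and CA repeats had higher shares than in shared regions, and the TATA box letters and the homeodomain core lower ones. The GAGA repeat, the letters bound by the GAGA factor encoded by Trl, was found in 24 of 236 regions of replicate 3 (10.2%, 6.93 to 14.7%), against 3.24% of shared regions from the same ranks and 4.03% of the flanking windows 1000 bp from each summit. The CA repeat was found in 22 (9.32%, 6.24 to 13.7%), against 3.59% and 4.45%. The TATA box letters were found in 52 (22%, 17.2 to 27.7%), against 30.9% and 21.8%, and the homeodomain core TAATTA in 23 (9.75%, 6.58 to 14.2%), against 15% and 14.8%. In the replicate 2 set the GAGA repeat was in 4 of 63 (6.35%), the CA repeat in 1 (1.59%), TATAAA in 21 (33.3%) and TAATTA in 10 (15.9%), against 3.38%, 2.73%, 30.9% and 14.8%. Of 13945 windows of the same length around 1 start of each protein-coding gene, 3.75% held the GAGA repeat, 3.13% the CA repeat, 28.8% TATAAA and 9.65% TAATTA. Both strands were searched, and a match is a description of letters, not of a bound site.

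At promoters of the replicate 3 set, 16 of 108 windows held the GAGA repeat (14.8%, 9.33 to 22.7%) and 12 the CA repeat (11.1%, 6.47 to 18.4%), against 3.7% and 3.1% of shared promoter regions from the same ranks. Elsewhere the shares were 6.25% and 7.81%, against 2.73% and 4.13%. The promoters with a GAGA repeat included those of tex (signal 58.1), Su(z)2, a Polycomb group gene (46.5), eyg, a Pax-family gene (45.1), puc, a phosphatase gene of the JNK pathway (43.8), ps, an RNA-binding protein gene (43.5), tai, a nuclear receptor coactivator gene (43.4), hts, which encodes adducin (41.5), dap, a cyclin-dependent kinase inhibitor gene (41.5), the zinc-finger gene sqz (41.2), the kinase gene fray (40.1) and pnr, a GATA factor gene (39.3). Promoters with a CA repeat included those of S6k, a growth-pathway kinase gene (53.7), shn, a zinc-finger gene of Dpp signalling (53.6), LanB1, a laminin gene (47.1), mrt (45.8) and Dab (41.9). The pnr, ps and mrt windows held both repeats.

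The element bound by Pum in RNA, TGTANATA, was found in 5 of 63 regions of replicate 2 (7.94%, 3.44 to 17.3%) and 28 of 236 of replicate 3 (11.9%, 8.34 to 16.6%), against 9.3% and 9.43% of shared regions from the same ranks. The flanking windows gave 6.35% and 8.47%, and 5.69% of start windows held it. The 3 strongest replicate 3 regions with it were at Klc (79.1), in an intron of CG5346 (71.1) and in the 3' UTR of CG1888 (60.2). In replicate 2 they were the promoter shared by Zw10 and Klp3A (59.8), an intergenic region 1879 bp from fz (54.9) and the promoter shared by Srp72 and Septin2 (50.1). The DRE (TATCGATA), the site of the promoter factor Dref, was in 2 regions of replicate 2 (3.17%) and 11 of replicate 3 (4.66%), against 4.93% and 4.86%. The BEAF-32 core CGATA, which every DRE contains, was in 24 (38.1%) and 64 (27.1%), against 30.6% and 32.4%. The share of start windows was 7.29% for the DRE and 38.1% for the BEAF-32 core. The other 9 motifs (the Zelda site CAGGTAG, the E-box, the Twist E-box CATATG, the site AGATAAG of GATA factors, a Tinman site CACTTGA, a Grainyhead site AACNGGTT, the AP-1 site, the adenine run AAAAAAAA and the repeat ATATATAT) were each in at most 9.52% of the replicate 2 set and 11% of the replicate 3 set, and differed from shared regions in both directions. The adenine run was in 9.52% and 11%, against 15.2% and 15.1% of shared regions, the AP-1 site in 9.52% and 3.81%, against 5.32% and 5.17%, and ATATATAT in 4.76% and 0.847%, against 2.29% and 2.57%. The Twist E-box was in 3.17% and 7.63%, against 7.14% and 7%, and the site of GATA factors in 4.76% and 3.81%, against 2.42% and 2.53%. The Tinman site was in 1.59% and 2.54%, against 3.72% and 3.52%, and the Grainyhead site in 1.59% and 3.81%, against 2.81% and 2.75%. The Zelda site was in 1.59% and 0.847%, against 0.779% and 0.986%, and the E-box in 1.59% and 2.54%, against 2.64% and 2.15%.

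Few of the regions lay at promoters of the gene groups examined. The shared strong regions, given beside them, were far more numerous (3892 in replicate 2 and 3697 in replicate 3). A gene was counted when a transcript start lay within 500 bp of a summit. Of all 18164 genes, 53 (0.292%) were counted for the one-replicate regions of replicate 2 and 145 (0.798%) for those of replicate 3, and 2742 (15.1%) and 2643 (14.6%) for the shared strong regions. At these shares a short list has few or 0 such genes, and the counts are given as descriptions of the lists. Of the 8 genes of known Pumilio target mRNAs, 0 were at a one-replicate region of either library, while 4 were at a shared strong region of replicate 2 and 1 at one of replicate 3. Of 92 ribosomal protein genes, 0 and 1 were at one-replicate regions of replicates 2 and 3, and 45 and 52 at shared ones. The 1 gene was RpL29, with 56 in replicate 3 and 16 in replicate 2 at 1299 bp. Of 73 mitochondrial ribosomal protein genes, 0 and 1 were at one-replicate regions and 29 and 25 at shared ones. The 1 gene was mRpS16, which shares its region (42.5) with the zinc-finger gene cg. Of 48 proteasome subunit genes, Prosalpha4 on X was at a region of replicate 2 (47.4, with 26.1 in replicate 3 at 446 bp), and 13 and 10 were at shared regions.

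Chromatin genes were each at few regions. Of 19 Polycomb group genes, 1 was at a region of each set. In replicate 2 this was Pc, whose protein binds methylated histone H3, with a summit 63 bp from the start on 3L at 21318083. Its signal was 50.1 in replicate 2, 16.3 in replicate 3 at 608 bp and 52.8 in the pooled list. In replicate 3 it was Su(z)2, with 46.5, where the nearest replicate 2 summit was 11399 bp away and the pooled signal was 66.9. Shared strong regions held 6 and 7 of these genes. Of 14 genes of insulator and promoter architecture proteins, BEAF-32 was at a region of replicate 2 (44.9, with 37 in replicate 3 at 381 bp), beside 7 genes at shared regions of each library. Of 18 trithorax group and Brahma complex genes 0 were at a one-replicate region by promoter, although the span of kis, a chromatin remodeller gene, held 2 regions of replicate 3.

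The lists of developmental and cell cycle genes left out others, such as eyg and shn, that were at promoter regions of replicate 3. Among the genes of these lists, replicate 2 had a one-replicate region at 0 promoters and replicate 3 at 4. The latter were 1 of 31 gap, pair-rule and segment polarity genes and 1 of 26 dorsoventral and mesoderm genes. The other 2 were of 18 cell cycle genes. The shares were 3.23%, 3.85% and 11.1%, against 0.798% of all genes. Shared strong regions were at 3, 5 and 4 genes of these lists in replicate 2 and 3, 7 and 6 in replicate 3. The 4 genes were fz, the receptor gene of Wnt and planar polarity signalling (39.5), pnr (39.3), E2f1, a cell cycle transcription factor gene (39.7, at 6 bp from the start), and dap (41.5). All 4 had signals under the median of the replicate 3 set (44.1), and the nearest replicate 2 summits were at 540 bp, 1468 bp, 710 bp and 814 bp. The Hox, neural, muscle, epidermal, germ plasm, maternal regulator, heat shock, histone, cuticle protein, chemoreceptor, cytochrome P450 and snRNA lists had 0 promoters in either set. These lists held 8 to 186 genes, and the shares over all genes were only 0.292% and 0.798%. Some of their genes held a region of replicate 3 in an intron, among them the Hox gene lab (42.2), the Notch coactivator gene mam with 2 (46.6 and 42.1) and the integrin gene mew (39.6).

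Of 295 tRNA genes, 4 (1.36%, against 0.798% of all genes) were at 2 regions of replicate 3. The pair tRNA:Arg-CCT-1-2 and tRNA:Arg-CCT-1-3 shared a region with 66.7, with 15.3 in replicate 2 at 300 bp. The pair tRNA:Lys-CTT-1-5 and tRNA:Arg-ACG-1-4 shared a region with 58.4, where the nearest replicate 2 summit was 14016 bp away and the pooled signal was 77.3. At shared regions there were 13 tRNA genes in replicate 2 and 14 in replicate 3. Of 274 snoRNA genes 1 (0.365%) and of 260 microRNA genes 2 (0.769%) were at regions of replicate 3, and 1 microRNA gene (0.385%) was at a region of replicate 2. The snoRNA gene snoRNA:Me28S-C2645a (40.1) and the microRNA genes mir-4918 (58.1) and mir-4962 (42.2) were at regions of replicate 3, and mir-4974 (47.5) was at a region of replicate 2. Of 2447 long non-coding RNA genes, antisense ones included, 3 (0.123%) were at regions of replicate 2 and 10 (0.409%) of replicate 3, the strongest being lncRNA:CR44888 (46.6) and asRNA:CR45136 (69.9). Shared regions held 143 and 138.

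Some genes held a pair of replicate 3 regions. They were kis (signals 47.4 and 43.5), spen, which encodes an RNA-binding corepressor (40.5 and 40, in its 5' UTR), tai (43.4 and 40), shn (53.6 and 39.4), mam, hts (41.5 and 38.8), Stat92E (71.2 and 46.6), Svil, the supervillin gene (64.4 and 47), NFAT (46.8 and 39.2), CHES-1-like (58.4 and 52.4), pxb (45.9 and 39.1), Rchy1 (53.2 and 39.1), Gmppb (44.8 and 42.4), CG46385 (58.9 and 50.2) and the overlapping genes Glut4EF and CG46467 (the same pair, 44.9 and 41.5). The kis pair lay inside lncRNA:CR44218 as well. Its summits were 234 bp apart and those of spen 223 bp apart, closer than the matching distance, while the summits of the other pairs were 809 bp or more apart. In replicate 2 the only gene with a pair was Gnpat (49.6 and 48.8, with summits 215 bp apart). The genes with a pair in replicate 3 ranged in length from 904 bp for lncRNA:CR44218 to 121572 bp for Svil. Single intron regions of replicate 3 were in fru, the sex determination gene (59), cact, the inhibitor gene of Dorsal signalling (58.8), and REPTOR, a transcription factor gene downstream of TORC1 (58.6).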

How the data were processed

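Region lists of 2 Pum-eGFP ChIP-seq libraries were used on dm6 (dm3 for 1 alternative), with 30000 rows per replicate, 26275 in the pooled list and 3970 in the optimal list. The signal of each row is the authors' own deposited value, in column 7 of each list. The −log10 of the q-value was also deposited by the authors, and each list has a highest value that many rows share. The caller is not given in the sources used here, and the file notes state that a control file was used. Read depth is unknown. Coordinates are 1-based. Summits were compared between lists within 250 bp. Gene models came from Ensembl release 115 (BDGP 6.54), without 5809 transposable elements, and bases from RefSeq. Summits were classed as promoter first, then 5' UTR, 3' UTR, coding, remaining exon, intron or intergenic. Motifs were sought on both strands in 201 bp windows and in flanking windows 1000 bp away. Wilson intervals (95%) are given, and no test was run. Genes were named where they had the start nearest to the 12 strongest regions of a set, or were among up to 4 genes of each of 26 lists with the strongest region within 500 bp. Genes named for a motif, an exon, an arm or a pair of regions were chosen after their values were seen. The members, lists and motifs were chosen with earlier results of these data known. The code of the rule was run on simulated lists of well separated summits with known planted regions. This checks the code only, not the rule where summits lie close together. Python 3.11.15, numpy 2.4.6, pandas 2.3.3, scipy 1.17.1 and matplotlib 3.10.9 were used.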

Additional observations from a re-analysis of the deposited data

How the results depend on the processing

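The number of regions depended on the distance and depth of the rule. The replicate 2 set of 63 regions became 216 with a match distance of 100 bp, 38 with 500 bp and 17 with 1000 bp, an alternative chosen after seeing the data. The replicate 3 set of 236 became 441 with 100 bp and 136 with 1000 bp. With the 2000 strongest rows the sets held 1 and 22 regions, and with 8000 rows 1120 and 1512. The replicate 3 set stayed the larger in all of these. Counts stayed within 1.5 times under matching by overlap (48 and 209), with regions near optimal summits kept (78 and 273), with close summits dropped first (74 and 261), on dm3 (51 and 218) and, for replicate 3, with 500 bp (194). The promoter share of replicate 2, 54%, became 39.5% with a match distance of 500 bp, 0% with the 2000 strongest rows (1 region) and 22.6% with 8000. That of replicate 3, 45.8%, became 37.3% with a promoter of 250 bp on either side and 56.4% with 1000 bp. Of 32 motif shares, 21 moved with windows of 50 bp on either side of the summit and 17 with 200 bp, as a shorter or longer window holds fewer or more matches. Of 32 flanking shares, 4 moved with windows 500 bp away. Leaving out a replicate gives no value, because the rule needs both libraries. No paired analysis was possible because there is 1 group. The files hold no read counts, so a region absent from a list cannot be given a detection limit.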
